A study of Mus musculus with 12 samples.

Results

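The 9 genes described here encode kidney enzymes of tyrosine breakdown (Hpd, Hgd, Gstz1 and Fah), of proline breakdown (Aldh4a1), of glyoxylate, hydroxy acid and D-amino acid handling (Agxt2, Hao2 and Dao) and of creatine synthesis (Gatm). They were taken by gene symbol, and they make up 9 of the 19505 genes that the array's annotation names. Probe sets were to be selected on the highest mean over the 12 samples, but each of the 9 genes had 1 probe set, so that this measured value decided nothing. The genes were listed with earlier results of the same arrays known. Their counts, medians and p-values therefore describe these genes, and nothing is read from them about amino acid enzymes in general.

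Whole-kidney RNA was measured on Affymetrix Clariom S microarrays, on which each probe set gives a log2 signal, in 12 samples of mice aged 16 weeks, 3 in each of 4 groups. Wild type mice received vehicle. Alport mice, hemizygous for a nonsense (G5X) mutation in COL4A5, a collagen chain of the glomerular basement membrane, received vehicle, losartan or metformin. Losartan, a blocker of the angiotensin receptor, was given at 125 µg/mL in the drinking water and later at 250 µg/mL. The labels' protocol calls losartan co-administered while the groups are titled by a drug each, so whether the losartan group also received metformin is not settled by that wording, and it is treated here as losartan alone. Metformin, a biguanide used against diabetes, was given at 2.5 mg/mL and later at 5.0 mg/mL. The labels place the first dose at weeks 6 to 11 and the later dose at weeks 12 to 20, which runs past the stated age. Whether each sample is a separate mouse is not stated in the labels, and the spread behind every p-value may therefore be technical.

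Tyrosine is first stripped of its amino group, and the resulting hydroxyphenylpyruvate passes through 4 enzymes in turn. Hpd makes homogentisate, Hgd opens its ring, Gstz1 isomerises the product and Fah splits it into fumarate and acetoacetate. The liver carries most of this flux, and the proximal tubule of the kidney, which takes back amino acids from the filtrate, also expresses the enzymes. Inherited loss of FAH, HGD or HPD causes human tyrosinaemia or alkaptonuria.

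The start regions of 4 of the genes are shown because their signals behaved differently: Hpd had the greatest change of the 9, Gatm none that passed the test, and Hpd and Hao2 varied together within the groups. Agxt2 is shown for the motif described here. Each is the 250 bases before an annotated start on the coding strand, from RefSeq on GRCm38.p6, with motif matches in capitals. They lie at chr5:123182724-123182973 (minus strand), chr15:10358283-10358532 (plus strand), chr3:98893231-98893480 (minus strand) and chr2:122611278-122611527 (minus strand).
Hpd: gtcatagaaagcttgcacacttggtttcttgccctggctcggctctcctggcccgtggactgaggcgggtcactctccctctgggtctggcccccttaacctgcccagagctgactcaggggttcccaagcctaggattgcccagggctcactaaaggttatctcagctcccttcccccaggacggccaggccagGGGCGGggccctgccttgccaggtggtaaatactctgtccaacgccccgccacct
Agxt2: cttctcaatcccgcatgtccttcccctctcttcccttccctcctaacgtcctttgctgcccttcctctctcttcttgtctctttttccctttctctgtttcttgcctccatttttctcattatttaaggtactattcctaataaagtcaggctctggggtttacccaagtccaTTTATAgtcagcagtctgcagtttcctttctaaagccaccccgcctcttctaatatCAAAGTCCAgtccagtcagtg
Hao2: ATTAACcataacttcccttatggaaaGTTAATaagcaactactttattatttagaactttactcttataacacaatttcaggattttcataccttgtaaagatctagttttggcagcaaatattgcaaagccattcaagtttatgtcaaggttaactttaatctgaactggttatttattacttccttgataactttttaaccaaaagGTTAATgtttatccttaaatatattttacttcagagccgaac
Gatm: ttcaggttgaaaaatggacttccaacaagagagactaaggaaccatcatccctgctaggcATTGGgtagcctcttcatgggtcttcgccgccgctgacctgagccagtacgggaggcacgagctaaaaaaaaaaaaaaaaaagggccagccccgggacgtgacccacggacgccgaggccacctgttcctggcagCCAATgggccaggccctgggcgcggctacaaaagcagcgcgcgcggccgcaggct
Both strands were searched for 5 short motifs in 13 start regions of the 9 genes. The letters CAAAGTCCA, a form of the site for the nuclear receptor HNF4, occurred in Agxt2 alone, at -21 from the start shown, and in 0.384% of 32851 start regions of the same length. The letters GTTAAT, the core of the HNF1 site, occurred in Hao2 alone, at -250, -224 and -42, and in 6.43% of all regions. GGGCGG, the GC box, was found in 4 of the 9 genes (Hpd, Gstz1, Fah and Dao) and in 32.7% of all regions. CCAAT was found in 5 genes (Hgd, Gstz1, Aldh4a1, Gatm and Dao) and in 33.9% of all regions, and TATAAA in Hgd and Agxt2 and in 12.4% of all regions. No motif was shared by the 9 genes. A match is a description of letters and not evidence of binding.

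Sample medians lay between 5.88 and 6.06 on the log2 scale, and Pearson correlations between samples of a group were 0.990 to 0.994. Col4a5, the gene that carries the mutation, fell by 0.92 ± 0.23 in Alport vehicle (limma, adjusted p = 0.0116), although a nonsense mutation need not lower the signal of a probe set. Its signal was low, at 5.06, 5.83 and 5.40 in wild type and 4.44, 4.13 and 4.97 in Alport vehicle, all below the lowest sample median. All 17 measured proximal tubule markers stood above the sample median in every sample. The kidney label was further checked against 12 hepatocyte markers, because the liver is the main site of these enzymes. Of those, 5 (Apoa1, Tat, Cps1, Ahsg and Cyp3a11) were under the sample median on all 12 arrays and 6, among them Cyp2e1, Apob and Ttr, were above it on all 12. The hepatocyte list's mean signal ranged from 8.20 to 8.26 in wild type, 8.10 to 8.34 in Alport vehicle, 8.22 to 8.40 with losartan and 8.14 to 8.34 with metformin. In Alport vehicle against wild type its members went both ways, with 3 of 12 lower and 2 higher. Alb, the gene for serum albumin, fell by 1.29, Cyp2e1 fell by 0.86 and Apob fell by 0.81, while Ttr rose by 1.19 and Fgb by 2.03 (limma, adjusted p of 0.00173, 0.00269, 0.00400, 0.00690 and 0.0161). Their part in the results was not tested.

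Alport vehicle kidneys had less signal than wild type for 8 of the 9 enzymes, and all 4 steps of the tyrosine route fell. The change ran from 1.62-fold for Hgd to 7.66-fold for Hpd. Gatm was the exception. For the same 8 genes every Alport vehicle sample lay below every wild type sample, as in 15.5% of all probe sets. Among all 22206 probe sets, 7.71% were called lower in this comparison by the same rule, an adjusted p under 0.05 in limma. That share was 12.8% with each sample centred on its median. The median change was -1.13 over the 9 enzymes and -0.03 over all probe sets. In whole kidney, fewer cells of a type and less RNA per cell cannot be told apart.

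Hpd, the dioxygenase that makes homogentisate, read 11.62, 12.23 and 12.60 in the wild type samples and 9.11, 8.72 and 9.81 in the Alport vehicle samples. Even the highest Alport vehicle sample lay 1.81 below the lowest wild type sample. Hpd fell by 2.94 ± 0.43 (SE, n = 3 per group), a 7.66-fold change (limma, adjusted p = 0.000178). Hgd, which opens the ring of homogentisate, read 15.57, 15.33 and 15.48 in wild type and 14.67, 15.13 and 14.50 in Alport vehicle. Its groups did not overlap, though the highest Alport sample came within 0.20 of the lowest wild type one. Hgd fell by 0.69 ± 0.19, 1.62-fold (adjusted p = 0.0179). This call was lost without wild type sample 1 or 3 or Alport vehicle sample 1 or 3, with adjusted p of 0.0548 to 0.0852.

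Gstz1, the isomerase that follows, read 13.46, 13.39 and 13.54 in wild type and 11.72, 12.36 and 12.26 in Alport vehicle. The wild type samples lay within 0.15 of each other, and the lowest was 1.03 above the highest Alport vehicle sample. Gstz1 fell by 1.35 ± 0.19, 2.55-fold (adjusted p = 0.000110). Fah, the hydrolase that ends the route, read 17.03, 17.07 and 16.87 against 15.65, 15.92 and 16.00. Its groups were as clearly apart, and Fah fell by 1.13 ± 0.16, 2.19-fold (adjusted p = 0.000136). The decreases of Hpd, Gstz1 and Fah passed the test under all 13 alternative settings and sample omissions.

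Aldh4a1, the mitochondrial dehydrogenase that finishes proline breakdown to glutamate, read 13.08, 13.01 and 13.25 in wild type and 11.86, 12.87 and 12.39 in Alport vehicle. The middle Alport vehicle sample, at 12.39, and the lowest were well below wild type, while the highest was 0.14 below the lowest wild type sample. Aldh4a1 fell by 0.74 ± 0.23, 1.67-fold (adjusted p = 0.0403). Its call was lost in 7 of 13 alternatives, among them a new quantile normalization (adjusted p = 0.0786) and a fit of the 2 groups alone (0.0609). It was also lost without any 1 of the wild type samples or Alport vehicle sample 1 or 3, with adjusted p of 0.0687 to 0.199.

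Agxt2, a mitochondrial aminotransferase that acts on glyoxylate and on dimethylarginines, read 10.69, 10.70 and 10.86 in wild type and 9.11, 9.79 and 9.85 in Alport vehicle. It fell by 1.17 ± 0.24 with no overlap between groups (adjusted p = 0.00274). Hao2, a peroxisomal hydroxy acid oxidase, read 14.42, 15.07 and 14.93 against 13.53, 13.23 and 13.72. It fell by 1.31 ± 0.28, also with no overlap (adjusted p = 0.00339). Dao, the peroxisomal D-amino acid oxidase, read 15.91, 15.88 and 15.91 against 14.86, 15.41 and 15.15. It fell by 0.76 ± 0.17, 1.69-fold (adjusted p = 0.00559), and its wild type samples had the smallest spread of any group of the 9 genes (SD 0.02).

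Gatm, which makes the creatine precursor guanidinoacetate, read 15.64, 15.33 and 15.27 in wild type and 15.01, 15.58 and 14.59 in Alport vehicle. The groups overlapped, since Alport vehicle sample 2 exceeded all but the highest wild type sample. The difference was -0.35 ± 0.24, with a 95% interval from -0.85 to 0.15 (adjusted p = 0.371), so that neither no change nor a decrease as great as that of Hgd or Dao lay outside the interval. Gamt, the enzyme that turns guanidinoacetate into creatine, had -0.53 and the creatine transporter gene Slc6a8 had -0.16, and neither passed the test.

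**Figure D1:**
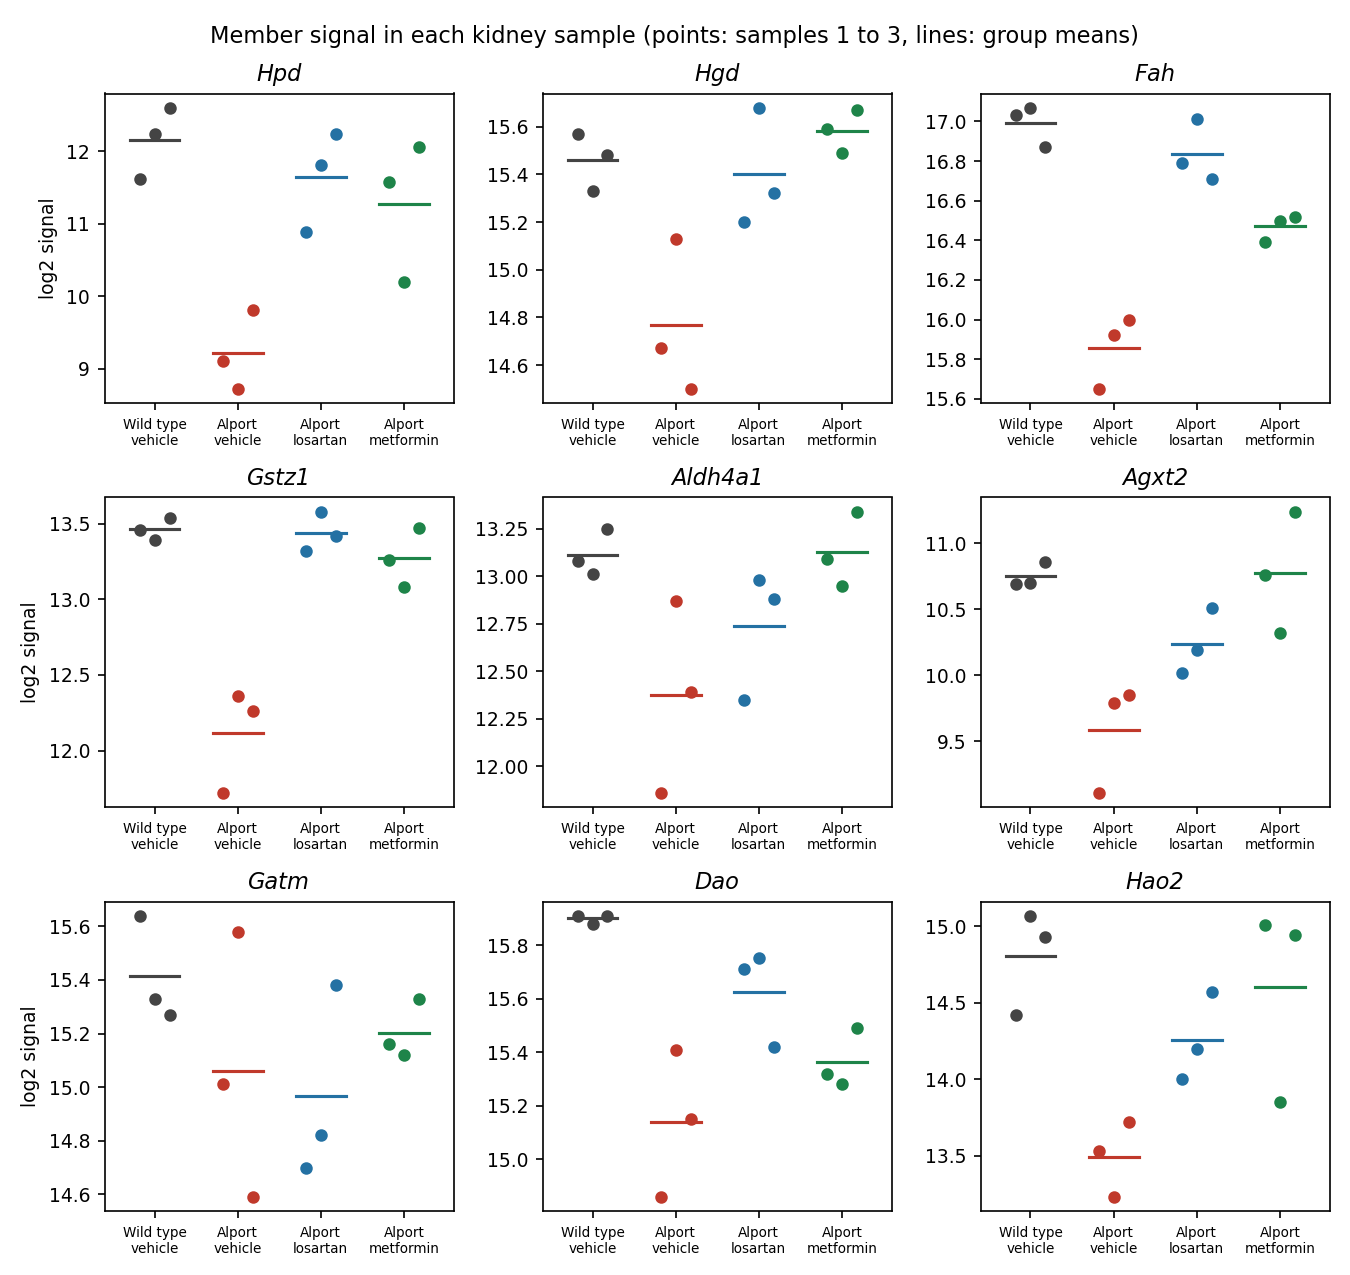
Log2 signal of each of the 9 genes (vertical axis, scaled separately for each gene and not starting at 0) in the 3 samples of each group (points, samples 1 to 3 from left to right), with the group mean as a line. The Alport vehicle samples lie below all wild type samples for every gene but Gatm, whose Alport vehicle values of 14.59 to 15.58 overlap the wild type values of 15.27 to 15.64.

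With losartan, the 4 tyrosine enzymes rose against Alport vehicle and no other gene of the 9 passed the test. Thus 4 of 9 were called higher, where 3.79% of all probe sets were called higher in this comparison (5.58% with each sample centred on its median). For 7 of the 9 genes every losartan sample stood above every vehicle sample, an arrangement seen in 11.8% of all probe sets. The median difference was 0.66 over the 9 and 0.01 over all probe sets. This comparison and the preceding one share the 3 Alport vehicle samples, so opposite signs in them are not independent.

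Hpd read 10.89, 11.81 and 12.24 with losartan, where the Alport vehicle samples had reached 9.81 at most. It rose by 2.43 ± 0.43, 5.40-fold (limma, adjusted p = 0.00306). Gstz1 read 13.32, 13.58 and 13.42 and rose by 1.33 ± 0.19, 2.51-fold (adjusted p = 0.000684). Of the 3 losartan values of Gstz1, 1 lay below, 1 within and 1 above the wild type range of 13.39 to 13.54. Fah read 16.79, 17.01 and 16.71 and rose by 0.98 ± 0.16, 1.97-fold (adjusted p = 0.00195). Hgd read 15.20, 15.68 and 15.32, above the vehicle samples with the smallest gap 0.07, and rose by 0.63 ± 0.19, 1.55-fold (adjusted p = 0.0496). The Hgd call was lost in 8 of 13 alternatives, among them omission of Alport vehicle sample 1 or 3 or losartan sample 2 or 3, with adjusted p of up to 0.223, while those of Hpd, Gstz1 and Fah were kept in all 13.

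The other 5 genes missed the threshold with losartan. Agxt2 read 10.02, 10.19 and 10.51, all above the vehicle samples, with a difference of 0.66 ± 0.24 (adjusted p = 0.113). Hao2 read 14.00, 14.20 and 14.57, also without overlap, with 0.76 ± 0.28 (adjusted p = 0.111). Dao read 15.71, 15.75 and 15.42, of which the last was 0.01 above the highest vehicle sample, with 0.49 ± 0.17 (adjusted p = 0.101). Dao passed with a trended robust variance prior (adjusted p = 0.0390) and without Alport vehicle sample 2 (0.0420). Aldh4a1, at 12.35, 12.98 and 12.88, overlapped the vehicle samples, with 0.36 ± 0.23 (adjusted p = 0.428). Gatm, at 14.70, 14.82 and 15.38, had -0.09 ± 0.24 (adjusted p = 0.884).

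With metformin, the 4 tyrosine enzymes, Agxt2 and Hao2 rose against Alport vehicle, 6 of the 9, where 2.67% of all probe sets were called higher (3.72% with each sample centred on its median). For 7 genes the metformin samples did not overlap the vehicle samples from above, as in 10.6% of all probe sets. The median difference was 0.82 over the 9 and -0.01 over all probe sets. The vehicle samples are again those of the other comparisons.

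Hpd read 11.57, 10.19 and 12.06 with metformin, and sample 2 stood only 0.38 above the highest vehicle sample. Hpd rose by 2.06 ± 0.43, 4.17-fold (limma, adjusted p = 0.0128). Gstz1 read 13.26, 13.08 and 13.47 and rose by 1.16 ± 0.19, 2.23-fold (adjusted p = 0.00345). Its lowest metformin sample was 0.72 above the highest vehicle sample. Hgd read 15.59, 15.49 and 15.67, the narrowest of its groups, and rose by 0.82 ± 0.19, 1.76-fold (adjusted p = 0.0210). Fah read 16.39, 16.50 and 16.52 and rose by 0.61 ± 0.16, 1.53-fold (adjusted p = 0.0385). The Fah values formed a step of their own, above every vehicle sample and below every losartan and wild type sample.

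Agxt2 read 10.76, 10.32 and 11.24 with metformin and rose by 1.19 ± 0.24, 2.28-fold (adjusted p = 0.0105). Hao2 read 15.01, 13.85 and 14.94 and rose by 1.11 ± 0.28, 2.15-fold (adjusted p = 0.0314). As with Hpd, metformin sample 2 was the low one, 0.13 above the highest vehicle sample. Aldh4a1, at 13.09, 12.95 and 13.34, lay above every vehicle sample, with 0.75 ± 0.23 (adjusted p = 0.0774). Dao, at 15.32, 15.28 and 15.49, overlapped the vehicle samples, with 0.22 ± 0.17 (adjusted p = 0.556), and Gatm, at 15.16, 15.12 and 15.33, had 0.14 ± 0.24 (adjusted p = 0.825). Of the 6 calls, that of Gstz1 alone held in all 13 alternatives. The number of calls among the 9 genes went from 6 to 1 without Alport vehicle sample 1 or without metformin sample 3 and to 2 in a fit of the 2 groups alone, where calls over all probe sets went from 1096 to 347, 266 and 410.

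**Figure D2:**
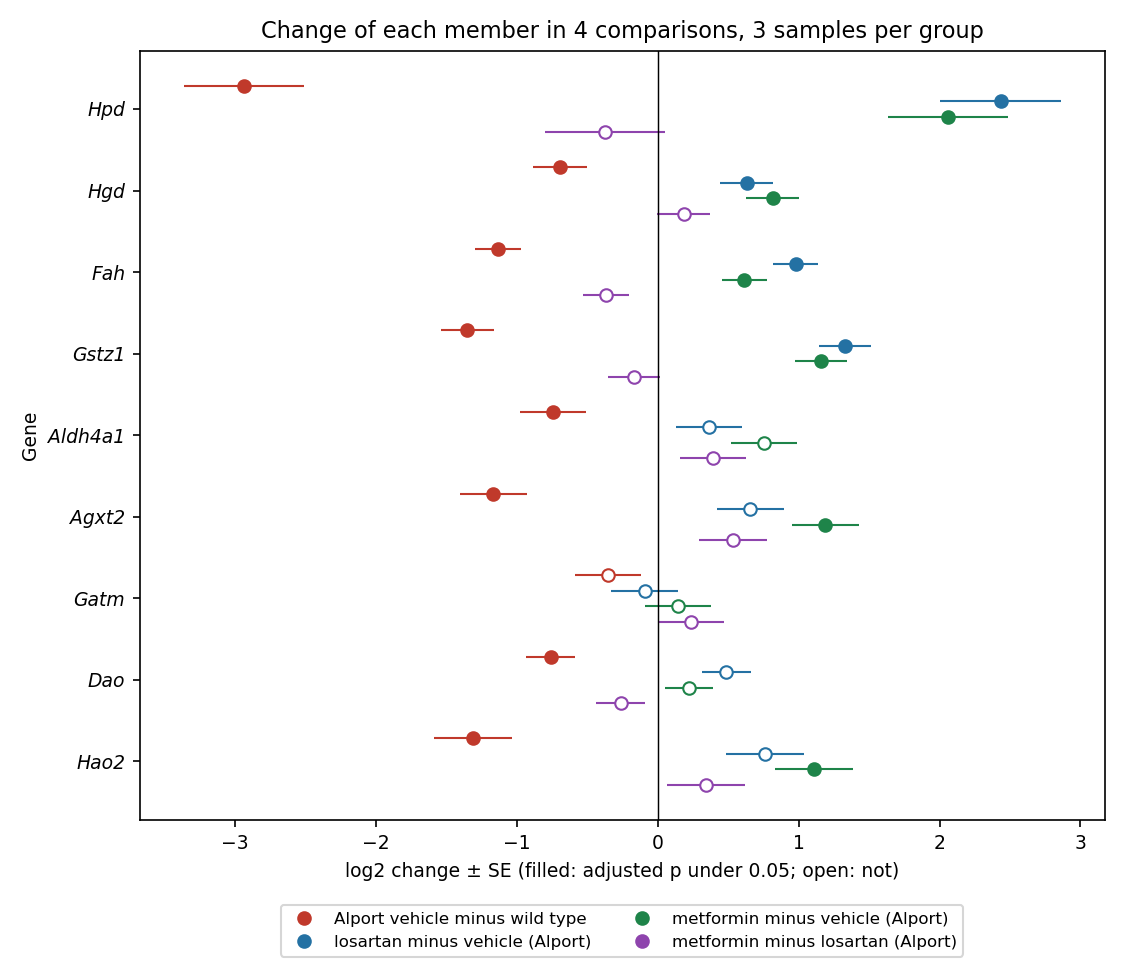
Log2 change ± SE of each gene (vertical axis) in 4 comparisons (colours), with filled points where the adjusted p was under 0.05 and open points elsewhere. Red points lie left of 0 from Gatm at -0.35 to Hpd at -2.94, the drug comparisons lie mostly right of 0, and no point for metformin minus losartan is filled.

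Set against each other, metformin and losartan gave no called difference for any of the 9 genes in limma, where 0.045% of all probe sets were called in either direction. Of all 22206 probe sets, 1859 had an unadjusted p under 0.05, and so did 2 of the 9 genes. The first of these was Fah, where all 3 metformin samples lay below all 3 losartan samples. Its difference was -0.37, with a 95% interval from -0.71 to -0.03 (adjusted p = 0.572). The other was Agxt2, higher with metformin by 0.53, with an interval from 0.03 to 1.04 (adjusted p = 0.574). The interval for Hpd ran from -1.28 to 0.53 and so held changes of more than 2-fold toward lower signal with metformin. The intervals of the other 6 genes were -0.22 to 0.58 for Hgd, -0.56 to 0.22 for Gstz1, -0.11 to 0.89 for Aldh4a1, -0.26 to 0.74 for Gatm, -0.63 to 0.10 for Dao and -0.24 to 0.93 for Hao2. These intervals do not show that the drugs act alike.

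Against wild type, none of the 9 genes was called in losartan-treated Alport kidneys, where 0.549% of all probe sets were called, and none in metformin-treated ones, where 4.18% were. With losartan the 4 tyrosine enzymes differed from wild type by -0.50 (Hpd), -0.06 (Hgd), -0.02 (Gstz1) and -0.15 (Fah). Aldh4a1, Agxt2 and Dao nevertheless lay below every wild type sample, by -0.38, -0.51 and -0.27, an arrangement seen in 8.32% of all probe sets. Agxt2 had the only unadjusted p under 0.05 of the 9 there, 0.0484 (limma, adjusted p = 0.458), and 2385 of all 22206 probe sets had such a p. With metformin, Fah and Dao lay below every wild type sample, as 12.2% of all probe sets did. Fah differed by -0.52, with a 95% interval from -0.86 to -0.18 (adjusted p = 0.0820), and Dao by -0.54, with -0.90 to -0.17 (adjusted p = 0.0950). Under a trended robust variance prior both were called, at adjusted p of 0.0212 and 0.0365. Both drug groups were compared with the same 3 wild type samples.

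The order of group means differed between the genes, and neighbours in it often overlapped. Hpd, Fah, Gstz1 and Dao ran from wild type through losartan and metformin to vehicle. Losartan and metformin samples overlapped for Hpd, Gstz1 and Dao and were separate for Fah. Hgd, Aldh4a1 and Agxt2 had metformin slightly above wild type, by 0.12, 0.01 and 0.02, with overlap in each case, and the sign turned with median centring for Aldh4a1 and Agxt2. Hao2 had metformin 0.21 below wild type and 0.34 above losartan, with overlap in both cases. Gatm, with losartan as the lowest group, followed none of these orders.

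Markers of the proximal tubule, which expresses these enzymes, moved with the same groups. Their mean signal, over 17 genes such as Lrp2, the gene for the uptake receptor megalin, and Slc22a6, an organic anion transporter, was 16.97, 16.94 and 16.97 in wild type and 15.82, 16.33 and 16.20 in Alport vehicle. It was 16.66, 16.91 and 16.88 with losartan and 16.72, 16.73 and 16.86 with metformin. In Alport vehicle against wild type 14 of 17 markers fell and the difference of the means was -0.84. With losartan 6 of 17 rose, with a mean difference of 0.70, and with metformin 5 of 17, with 0.65. The part of the tubule markers in the changes of the 9 enzymes was not tested.

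To describe the enzymes beside these markers, the marker mean of each sample was subtracted from each gene, a step chosen after the values were seen and given without a test. The difference between Alport vehicle and wild type was then -2.09 for Hpd, -0.51 for Gstz1, -0.32 for Agxt2 and -0.29 for Fah, each without overlap between the groups. It was -0.47 for Hao2, with overlap. Hgd, Aldh4a1 and Dao were close to the markers, at 0.15, 0.10 and 0.08, with overlap for Hgd and Aldh4a1 and with Dao higher without overlap. Gatm stood above the markers at 0.49, with overlap. For losartan against vehicle, Hpd at 1.73 and Gstz1 at 0.63 stayed higher without overlap. For metformin against vehicle, Gstz1 at 0.51 did so as well, Hpd had 1.41 with overlap, and Dao was lower without overlap at -0.43. The marker mean hides a wide range. Between Alport vehicle and wild type the 17 markers themselves ran from -0.21 for Acsm2 to -1.83 for Slc7a13. Before the subtraction, Hpd alone of the 9 genes fell by more than every marker, and the others lay within the range of the markers.

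**Figure D3:**
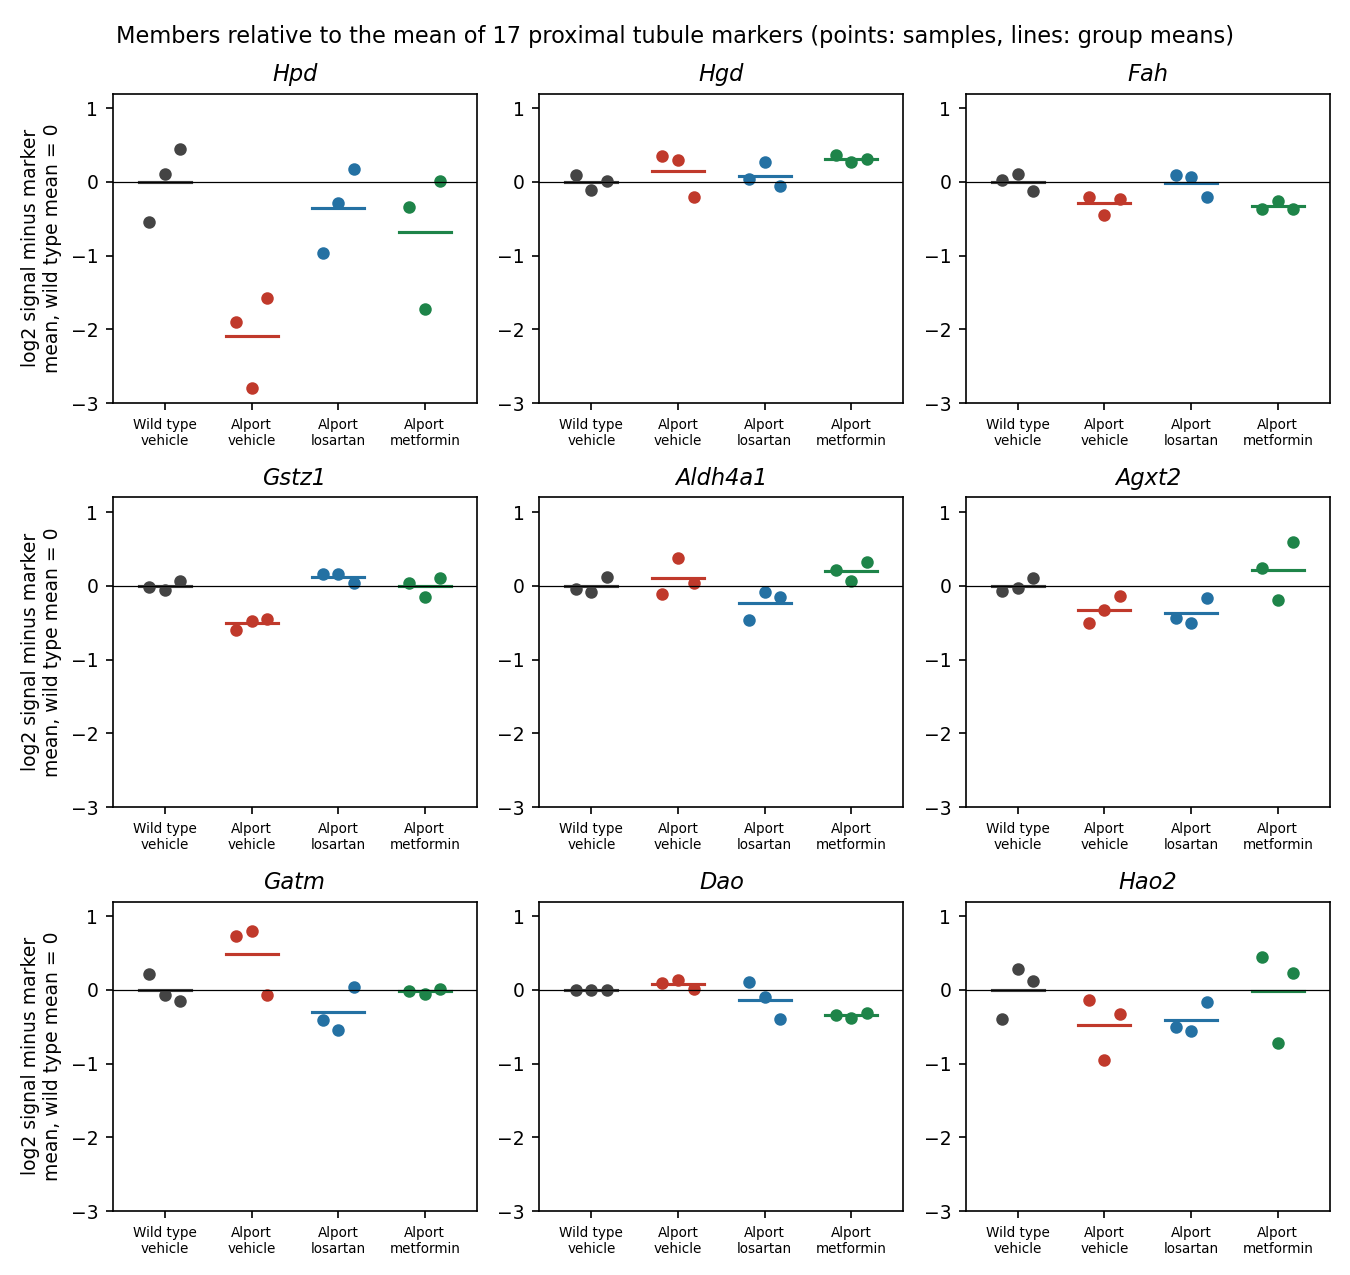
Log2 signal of each gene minus the mean of 17 proximal tubule markers in the same sample (vertical axis, shifted so that the wild type mean is 0), by group, with samples as points and group means as lines. Hpd keeps a difference of -2.09 between Alport vehicle and wild type and Gstz1 one of -0.51, while Hgd, Aldh4a1 and Dao lie near 0.

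Marker signals of some other cell types, and of tubular injury, also differed between the groups. In Alport vehicle against wild type, 8.43% of all probe sets were called higher. Lists for other tubule segments (1 of 9 rose, 2 fell) and endothelium (1 of 5 rose, 1 fell) went both ways there. Of the podocyte markers 1 of 4 rose, and of the macrophage and the lymphocyte markers 3 of 4 each. All 6 fibroblast and myofibroblast markers rose in Alport vehicle and fell with each drug. Their mean signal was 8.18 to 8.51 in wild type, 12.51 to 12.82 in Alport vehicle, 9.98 to 10.42 with losartan and 10.26 to 11.25 with metformin. All 7 tubular injury genes, among them Havcr1 (kidney injury molecule KIM), rose in Alport vehicle, 5 fell with losartan and 1 fell with metformin. Metformin sample 3 had the lowest mean of the injury genes in its group, 8.28 against 10.63 and 10.22, and it was the highest metformin sample for 8 of the 9 enzymes. Metformin sample 2 was the lowest for 8 of the 9, although its injury mean was below that of sample 1. Alport vehicle sample 1 had the highest injury mean of all samples, 11.45, and was the lowest of its group for 5 of the 9. The part of these cell types and of tubular injury in the enzyme changes was not tested.

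Beyond the 9 genes, 94 further genes listed under amino acid metabolism were measured. Of these, 57 fell, 3 rose and 34 were not called in Alport vehicle against wild type. Not all encode amino acid enzymes, since the lists also hold carriers such as Slc6a8 and Slc25a15 and peroxisomal genes such as Cat, Hsd17b4 and Pex11a. With losartan 36 rose and 1 fell against vehicle, and with metformin 23 rose and none fell. In limma none of the 94 was called between the drugs. Their median changes were -0.79, 0.57 and 0.48 in the first 3 of these comparisons. The lists were compiled with earlier results known, and 16.1% of all probe sets were called in either direction in the first comparison. Of all probe sets, 7.71% were called lower in that comparison, 3.79% higher with losartan and 2.67% higher with metformin.

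Around the tyrosine route, 4 of 7 listed genes of phenylalanine and tyrosine use fell, not all of which feed the route. They were Ddc, which makes dopamine, by 1.13, Th by 0.69, and the aspartate aminotransferases Got1 and Got2, each by 0.56. Th, like Ddc, leads to dopamine and not into the route. Th and Tat, the aminotransferase that opens the route in liver, were under the sample median on all 12 arrays. In the proline and hydroxyproline list, which holds the neighbours of Aldh4a1, 4 of 5 genes fell. They included Prodh2, which oxidises hydroxyproline, by 0.99, and the dipeptidase gene Pepd by 0.98. The other gene, Aldh18a1, belongs to proline synthesis and not breakdown, and it had 0.61 and was not called. All 4 that fell rose with losartan, and with metformin Grhpr alone did. Grhpr, which reduces the glyoxylate that hydroxyproline yields, fell by 1.5 (limma, adjusted p = 5.3e-05) and rose with each drug, by 0.99 with losartan and 1.01 with metformin.

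In the glycine, serine and creatine list, which holds the neighbours of Gatm, 9 of 16 genes fell. Dmgdh, which strips methyl groups from dimethylglycine, fell by 1.88 and rose by 1.60 with losartan and 1.59 with metformin. Gnmt, the glycine methyltransferase, fell by 1.58 and rose with losartan by 1.17, and with metformin it had 0.57 and was not called. Among enzymes of branched-chain amino acids 18 of 21 fell, led by Ivd, the isovaleryl-CoA dehydrogenase, by 1.55 (adjusted p = 1.67e-05). Of the 21, 12 rose with losartan and 6 with metformin. In lysine breakdown 6 of 7 fell, and Dhtkd1 of the oxoadipate dehydrogenase complex fell by 1.82 (adjusted p = 6.81e-06). It rose with losartan by 1.37 and with metformin by 0.89. Of the methionine and cysteine enzymes 6 of 10 fell. Cbs, the first enzyme of transsulphuration, fell by 1.51.

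The arginine list went both ways, with 4 of 12 lower and 2 higher. Arg2, the mitochondrial arginase, rose by 1.78 (adjusted p = 6.24e-05) and fell with losartan by 1.15, and with metformin it had -0.15 and was not called. The enzymes that degrade asymmetric dimethylarginine, a substrate that Agxt2 also uses, went opposite ways. Ddah1 fell by 0.79 and Ddah2 rose by 1.08 (limma, adjusted p of 0.00183 and 0.00442). Their levels were far apart, with wild type means of 16.35 for Ddah1 and 6.31 for Ddah2, where the median probe set had 5.95. Odc1, which begins polyamine synthesis, fell by 1.46 and rose with losartan by 1.09. In the histidine list 1 of 4 fell, and Ftcd, by 1.07 in Alport vehicle, rose with metformin by 1.42 while its 0.36 with losartan was not called. Asns, the asparagine synthetase, was the third enzyme that rose, by 0.99 (adjusted p = 0.0384).

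**Figure D4:**
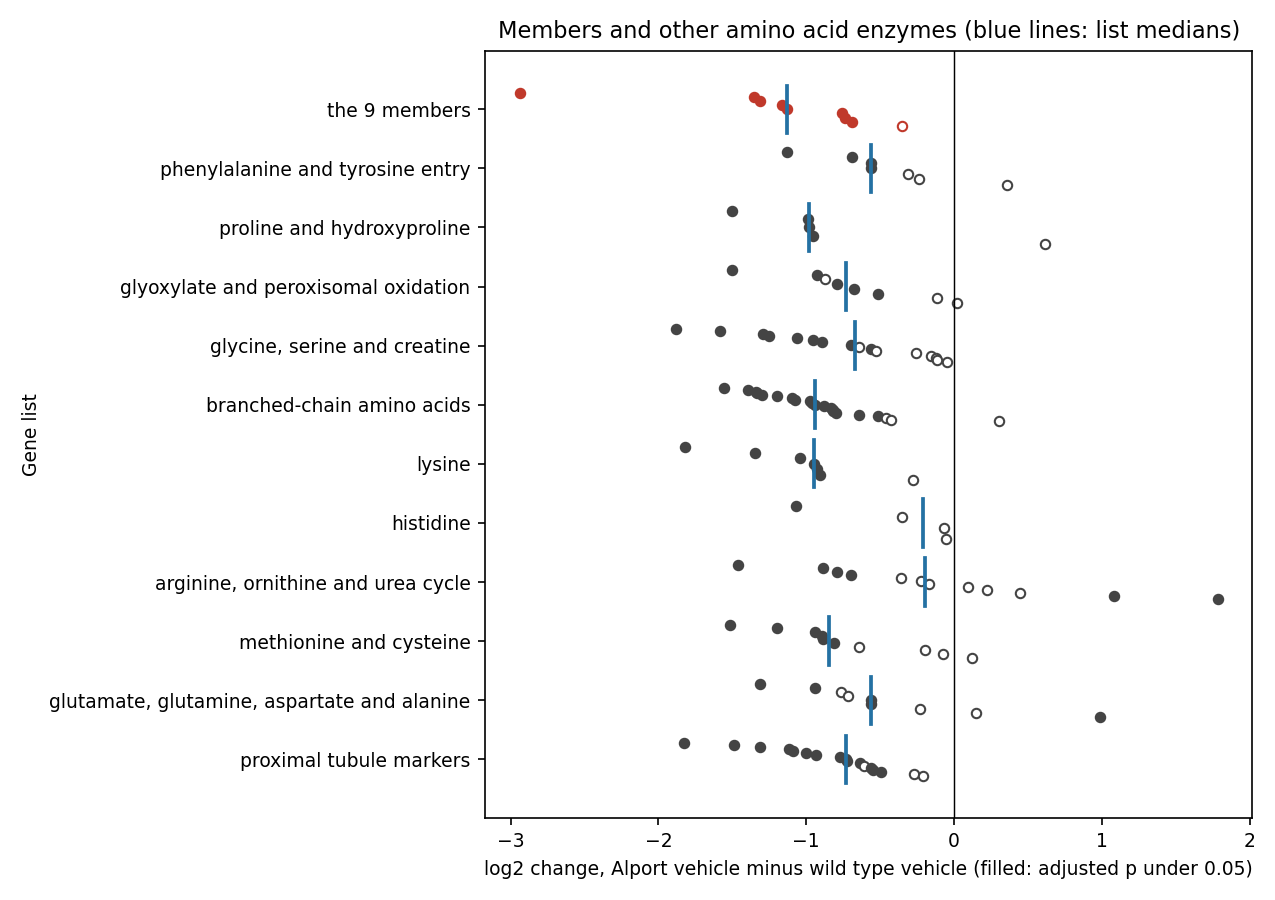
Log2 change between Alport vehicle and wild type vehicle (horizontal axis) for the 9 genes (red), the other genes listed under amino acid metabolism and the proximal tubule markers (grey), with filled points for adjusted p under 0.05 and blue lines for list medians. The 9 genes have a median of -1.13 and lists range from -0.20 for arginine to -0.98 for proline, with Arg2 and Ddah2 far to the right.

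Hnf4a, the gene for the nuclear receptor named with the Agxt2 start region, read 15.13, 15.09 and 15.11 in wild type and 13.52, 14.04 and 13.83 in Alport vehicle. It fell by 1.31 ± 0.16 (limma, adjusted p = 4.16e-05). With losartan it read 15.00, 15.10 and 14.94 and rose by 1.22 (adjusted p = 0.000530), and with metformin it read 14.59, 14.64 and 14.65 and rose by 0.83 (adjusted p = 0.00889). Like Fah, its metformin samples lay between the vehicle and the losartan samples without overlap. The part of Hnf4a in the changes of the enzymes was not tested.

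Across the 12 samples, Pearson correlations between the 36 pairs of the 9 genes ran from 0.177 to 0.924, with a median of 0.682. Those points fall into groups and share the arrays, so the correlations are descriptions. After group means were removed, the range was -0.175 to 0.912 and the median 0.389. Hpd and Hao2 had 0.920 across samples and 0.912 within groups, and both had low values in wild type sample 1 and metformin sample 2. Gstz1 and Aldh4a1 had 0.774 and 0.905. Fah and Gstz1, neighbours in the tyrosine route, had the highest value across samples, 0.924, and 0.609 within groups. Fah and Gatm had the lowest, 0.177 and -0.175.

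The genes most like Hpd by Pearson correlation over the 12 samples were Bend7 (0.962), the cytochrome P450 gene Cyp2d9 (0.952), the gap junction gene Gjb1 (0.951), the coagulation factor gene F5 (0.941) and the polarity gene Llgl2 (0.941). Within groups their correlations with Hpd were 0.745 to 0.870. The genes most like the mean of the 9, each scaled to equal spread, were Stard10 (0.976), Tmbim6 (0.972), Wdr24 (0.969), the dicarboxylate transporter gene Slc13a3 (0.968) and Aldh7a1, an enzyme of lysine breakdown (0.966). Aldh7a1 also had the highest of these 5 within groups, 0.945. The samples form group clusters in each case, and these values carry no test.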

How the data were processed

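Whole-kidney RNA of 12 mouse samples was hybridised to Clariom S arrays. The deposited log2 signals came from Transcriptome Analysis Console 4.0, per the submitters' processing notes. That they are log2 was read from the values. The sources used here give no background correction, normalization or probe summary. Groups were taken from sample titles. Of 22206 probe sets, 19572 carried 1 symbol in the platform annotation and 2634 none. A mean per group was fitted to all probe sets and 12 samples with limma 3.58.1 in R 4.3.3 (8 residual degrees of freedom), a fit tested on simulated data. Two-sided p-values were adjusted by Benjamini-Hochberg over all probe sets, and a call needed an adjusted p under 0.05. From each list of other genes of amino acid metabolism, up to 3 called genes with the largest change between Alport vehicle and wild type and a mean above the median probe set could be named, and a few others were named after their values were seen. The 9 genes and all lists were chosen with earlier results of these data known. Alternatives were median centring, quantile normalization, omission of dim probe sets, a trended robust prior, array weights, fits of 2 groups, a replicate block and omission of each sample. Listed genes that the annotation did not name were not analysed here.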

Additional observations from a re-analysis of the deposited data

How the results depend on the processing

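Each of the 54 results for a gene and a comparison was recomputed under 13 alternatives. Of the 18 called results, 10 passed the test under all 13 and none changed direction. Of the 36 others, 4 passed under at least 1 alternative. Omitting 1 sample gave 6 to 8 calls among the 9 genes in Alport vehicle against wild type, 3 to 5 for losartan against vehicle and 1 to 6 for metformin against vehicle. A fit of the 2 groups alone gave 2 calls for metformin against vehicle in place of 6, with fewer samples behind the variance. A trended robust prior gave 2 calls, both lower, in metformin-treated Alport against wild type in place of 0, and the cause was not tested. Calls over all probe sets also depended on the setting and are not set beside these counts. From these counts alone, a change among the 9 genes cannot be told from a change over all probe sets.

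Signs turned for 8 uncalled results, and the turned values were at most 0.21 in size. For metformin-treated Alport against wild type, median centring gave -0.0533 for Aldh4a1 and -0.0433 for Agxt2, and array weights gave -0.0038 and -0.0149. For losartan-treated Alport against wild type, Hgd had 0.0044 after quantile normalization. With 1 sample omitted, Gatm ranged from -0.3283 to 0.1667 for losartan and from -0.0917 to 0.4033 for metformin against vehicle, and Hpd from -0.7667 to 0.1683 for metformin against losartan. With losartan against wild type, Hgd ranged from -0.2 to 0.04 and Gstz1 from -0.0933 to 0.0367. With metformin against wild type, Aldh4a1 ranged from -0.0933 to 0.1017, Agxt2 from -0.21 to 0.25 and Hao2 from -0.4117 to 0.1683.

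Median centring moved the median change over all probe sets from -0.03 to -0.17 in Alport vehicle against wild type, and the calls from 1871 higher and 1711 lower to 1451 and 2842. It moved losartan against vehicle from 842 higher and 913 lower to 1238 and 724, and metformin against vehicle from 592 and 504 to 827 and 381. The calls among the 9 genes numbered 8, 4 and 6 on either scale.

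With the replicate block, 8, 3 and 5 of the 9 genes were called in the first 3 comparisons, given here without the calls over all probe sets. Same-numbered samples had residual correlations of -0.14 to 0.08 and other pairs -0.20 to 0.26, so same-numbered samples were not more alike by this measure. Whether the numbers pair the samples is not stated in the labels. No gene of the 9 had a further probe set to try. With 3 arrays a group, changes the size of that in Gatm could not be resolved.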
